A study of Mus musculus with 23 samples.

Results

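The Egr and Nr4a genes are 2 small families of transcription factors whose transcripts are made within minutes of neuronal activity. Egr1, Egr2, Egr3, Egr4, Nr4a1, Nr4a2 and Nr4a3 were taken by gene name rather than by a measured value. Earlier results of these data were known when they were chosen. They are 7 of the 55335 genes in a count table of mouse hippocampus. RNA sequencing of 23 libraries compared 3xTg mice, a model of Alzheimer's disease (AD), with their wild-type (WT) strain control, and asked what an inhibitor of stearoyl-CoA desaturase (SCDi) changes. Stearoyl-CoA desaturase makes monounsaturated fatty acids.

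WT-8M (n = 4) and 3xTg-8M (n = 4) were unoperated mice of 8 months. The other groups were 10 months old and carried a pump that infused the lateral ventricles for 28 days, with 0.8% DMSO as vehicle (WT-D, n = 4, and 3xTg-D, n = 4) or with 80 µM SCDi in the same vehicle (WT-S, n = 3, and 3xTg-S, n = 4). The labels give the WT strain as C57BL/6J x 129S1. The transgenes of the 3xTg mice include human APP and tau, which a Thy1 element drives in neurons. All mice were female and were killed with ketamine and xylazine according to the study's methods. Every mouse of 10 months had received surgery and DMSO, and no unoperated mouse of that age was analysed here. The titles give each library its own animal number, so that the p-values below measure the spread between animals of a group.

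Both families belong to the immediate-early genes, which need no new protein for their own transcription. Calcium entry and kinase signalling act on factors that already sit on their promoters. These are SRF with its ELK partners at CArG boxes and CREB at cAMP response elements (CREs). CRTC coactivators act with CREB. The EGR proteins are zinc finger factors that bind GC-rich sites, and the corepressors NAB1 and NAB2 hold them in check. The NR4A proteins are orphan nuclear receptors that act without a known hormone, alone at the NBRE site or, for some of them, with retinoid X receptors. In the hippocampus these genes are known for their part in long-lasting synaptic plasticity and in the formation of memory. The study itself read several immediate-early genes in these libraries as markers of activity, so the direction of such a list here is not independent evidence.

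The stretches before the annotated starts are shown to let a reader see the CRE letters that these members share. RefSeq windows of 5 of the 7 genes were searched. Egr1 was left out of the search, and no window was at hand for Egr3. Windows of Egr2, Egr4, Nr4a1, Nr4a2 and Nr4a3 follow 5′ to 3′ on the gene's own strand (GRCm38.p6). They end 1 base before the start, except in Nr4a3, where only bases outside annotated exons are printed. Capitals mark TGACG, its reverse complement CGTCA, CArG boxes, matches to GCGNGGGCG and TATAAA on either strand.
Egr2, chr10:67537619-67537868, + strand: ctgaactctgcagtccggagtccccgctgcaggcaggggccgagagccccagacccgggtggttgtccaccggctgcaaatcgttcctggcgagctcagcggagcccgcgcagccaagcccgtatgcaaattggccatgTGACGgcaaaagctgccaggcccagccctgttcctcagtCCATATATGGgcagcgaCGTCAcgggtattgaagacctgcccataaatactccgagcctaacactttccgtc
Egr4, chr6:85513590-85513839, - strand: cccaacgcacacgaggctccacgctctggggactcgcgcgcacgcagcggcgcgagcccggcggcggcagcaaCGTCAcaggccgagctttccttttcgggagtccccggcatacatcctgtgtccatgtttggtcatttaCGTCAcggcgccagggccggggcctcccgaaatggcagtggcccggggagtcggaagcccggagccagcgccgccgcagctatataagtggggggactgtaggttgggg
Nr4a1, chr15:101266596-101266845, + strand: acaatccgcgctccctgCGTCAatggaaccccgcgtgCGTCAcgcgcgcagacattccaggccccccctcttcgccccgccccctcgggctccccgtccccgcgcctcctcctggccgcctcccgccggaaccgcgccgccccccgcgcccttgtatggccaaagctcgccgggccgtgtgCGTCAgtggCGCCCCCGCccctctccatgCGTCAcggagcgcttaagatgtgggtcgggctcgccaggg
Nr4a2, chr2:57124004-57124253, - strand: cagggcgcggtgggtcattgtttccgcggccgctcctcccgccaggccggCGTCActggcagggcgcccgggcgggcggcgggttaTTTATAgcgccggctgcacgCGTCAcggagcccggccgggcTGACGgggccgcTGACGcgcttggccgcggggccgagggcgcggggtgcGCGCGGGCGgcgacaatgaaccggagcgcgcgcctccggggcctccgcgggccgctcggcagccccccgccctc
Nr4a3, chr4:48045055-48045152, + strand: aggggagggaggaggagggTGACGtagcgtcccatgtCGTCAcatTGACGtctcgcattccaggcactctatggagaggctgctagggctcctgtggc

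TGACG, the core of a CRE and here called a core site, was found 2 times in the 250 bases before the starts of Egr2 and Egr4 shown above, and 4 times before those of Nr4a1, Nr4a2 and Nr4a3 (of Nr4a3, 3 are in the stretch printed). Of 32851 RefSeq windows of that length, 17.8% held at least 1 core site on either strand, 3.90% at least 2 and 0.137% at least 4. The search for TGACG also takes in every TGACGTCA, the full CRE, which was in 1.55% of windows and in none of those searched for the members. Egr2 held a CArG box at positions -72 to -63, counted back from -1 beside the start, and 1.47% of all windows had one. The EGR letters GCGNGGGCG lay before Nr4a1 and Nr4a2 and in 4.70% of windows, while TATAAA (12.4% of windows) lay on the reverse strand before Nr4a2. AAAGGTCA, the NBRE, was in 1.34% of windows and in none of those searched for the members. The 5 windows held 61.6% to 80.0% G and C, and a match describes letters only. Egr2 has other annotated starts, and the windows of those at 67535499 and 67537566 held no core site.

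Levels differed widely between the 7 genes. On the scale of CPM (counts per 1M of the library's total after TMM scaling) divided by exon length in kilobases, the means over 23 libraries were 23.1 for Egr1, 21.3 for Egr3, 16.1 for Nr4a3, 13.7 for Nr4a2, 10.998 for Nr4a1, 5.08 for Egr4 and 0.580 for Egr2. Egr1 (chr18:34859823-34864984) and Egr3 (chr14:70077203-70082614) were thus the most abundant members per length, and Egr2 (chr10:67535475-67542188), best known for its role in myelinating Schwann cells, was by far the rarest. Egr2 had between 8 and 132 counts in a library, whereas the other members had between 96 and 4730, so that counting error weighs most on Egr2. Egr4 lies at chr6:85511121-85513589, Nr4a1 at chr15:101254269-101274795, Nr4a2 at chr2:57106830-57124003 and Nr4a3 at chr4:48045153-48086447 (GRCm38). None of the 7 overlaps another annotated gene.

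**Figure D1:**
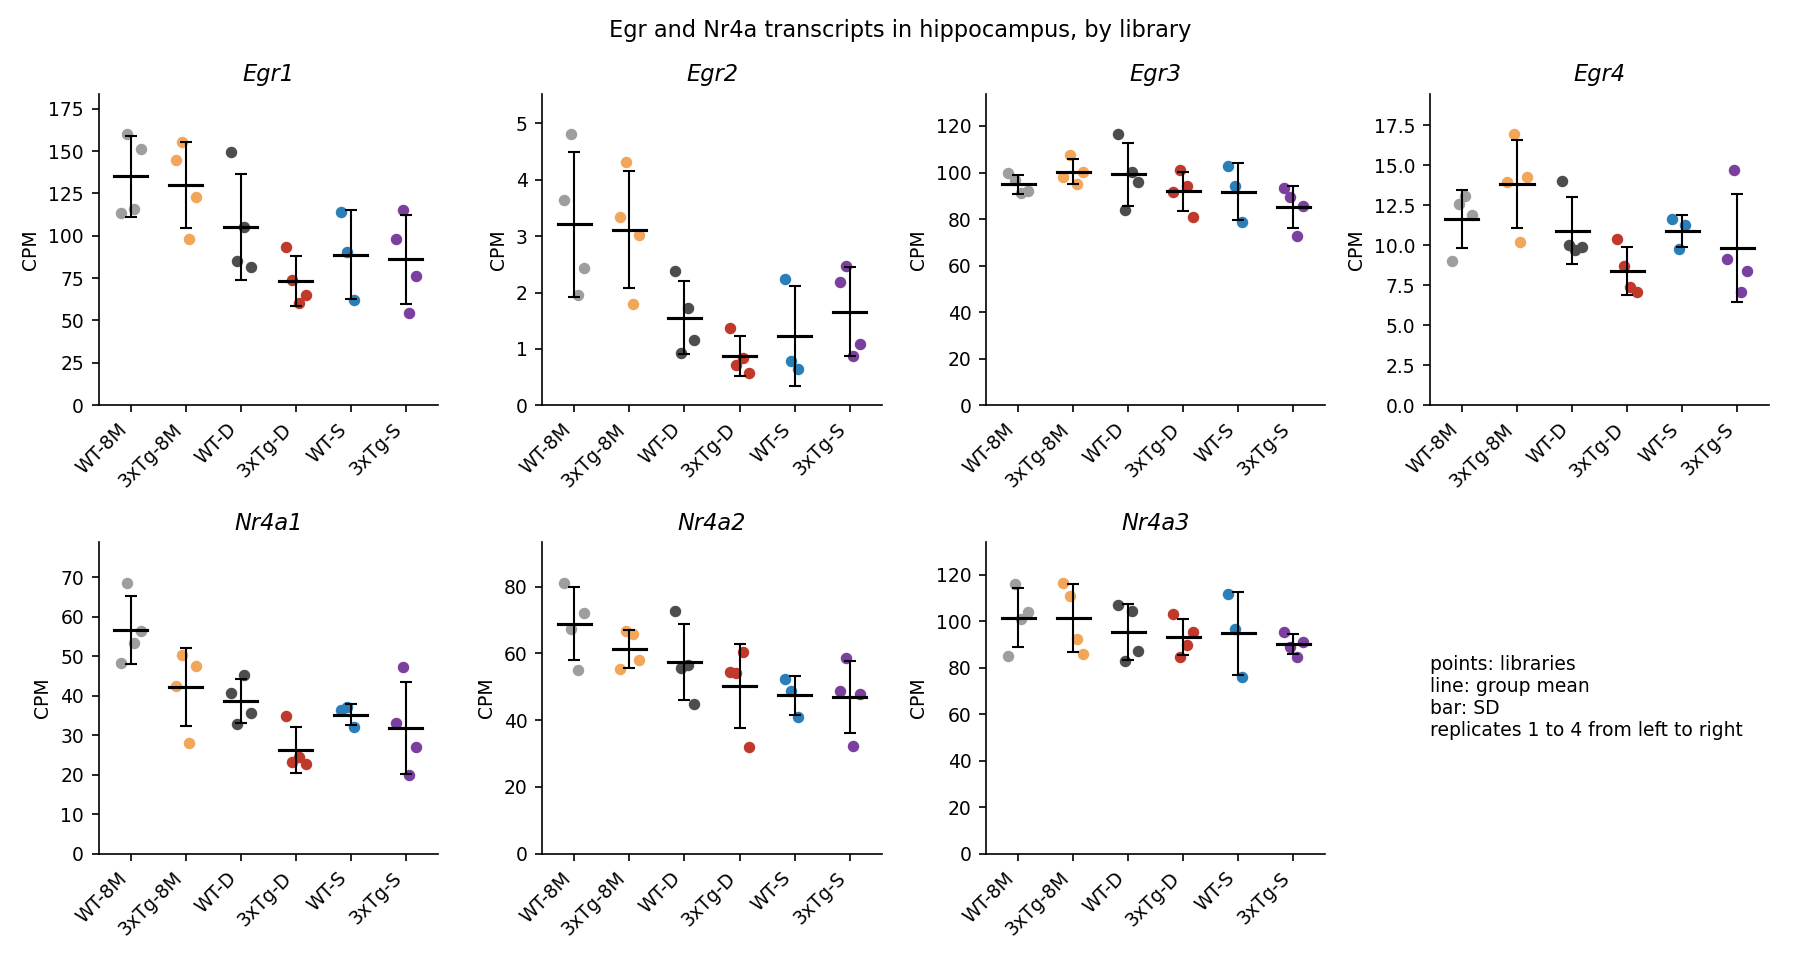
CPM of each gene (y axis, from 0) in the 23 libraries (points, replicates 1 to 4 from left to right) of the 6 groups (x axis), with group means (lines) and SDs (bars). All members but Egr3 had higher means in both groups of 8 months than in any other group, and Egr3 and Nr4a3 stayed within a narrow range.

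Libraries of 8 months held 12.8M to 36.7M counts on genes, and those of 10 months 12.99M to 17.6M. Markers of the hippocampal subfields were read in every library, with summed levels of 451 to 634 CPM for 6 dentate gyrus genes, 257 to 352 CPM for 4 CA1 genes and 191 to 271 CPM for 4 CA3 genes. The 6 choroid plexus markers stood apart at 370.2 CPM in 3xTg-8M replicate 4, 359 CPM in WT-S replicate 2 and 244 CPM in 3xTg-S replicate 2, against 28.8 to 123 CPM elsewhere. In 3xTg-8M replicate 4 and 3xTg-S replicate 2, levels relative to the mean over all libraries also declined with transcript length (slopes of -0.12 and -0.10 log2 CPM per doubling of length), against -0.03 to 0.06 in the other libraries.

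The order of group means was similar for several genes, but no 2 neighbours in it were apart. For Egr1, the group means (± SD) were 135 ± 23.9 CPM in WT-8M, 130.0 ± 25.4 CPM in 3xTg-8M, 105 ± 31.3 CPM in WT-D, 88.8 ± 26.1 CPM in WT-S, 86.1 ± 26.3 CPM in 3xTg-S and 73.2 ± 14.7 CPM in 3xTg-D. Nr4a1 had the same order, from 56.7 ± 8.63 CPM in WT-8M to 26.3 ± 5.78 CPM in 3xTg-D. Egr4 also had its lowest mean in 3xTg-D (8.38 ± 1.52 CPM) and Egr2 did too (0.874 ± 0.3503 CPM). Egr3, Nr4a2 and Nr4a3 had theirs in 3xTg-S, at 85.3 ± 8.98 CPM, 46.9 ± 10.9 CPM and 90.2 ± 4.43 CPM. For all 7 genes, the ranges of libraries overlapped between each pair of groups next to each other in this order. Nor did the groups separate for any member in the comparisons below, in which 7.80% (3xTg-D and WT-D), 7.04% (3xTg-S and 3xTg-D), 4.88% (WT-S and WT-D), 10.4% (3xTg-S and WT-D) and 10.8% (3xTg-S and WT-S) of all genes had groups without overlap. In bulk tissue, fewer cells that express a gene and less RNA per cell cannot be told apart.

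The first comparison asked how the strains differ in untreated mice of 8 months. Of the members, Nr4a1 stood lowest in 3xTg-8M relative to WT-8M, and the log2 fold changes of the others lay between -0.17 (Nr4a2) and 0.27 (Egr4). Nr4a1, also known as Nur77, was at 48.4, 68.6, 53.3 and 56.3 CPM in WT-8M replicates 1 to 4. It was at 42.4, 50.4, 28.1 and 47.5 CPM in 3xTg-8M. The groups overlapped, because 3xTg-8M replicate 2 lay above WT-8M replicate 1, and replicate 3 was the lowest of all 8. The log2 fold change of Nr4a1 was -0.42, SE 0.16 (95% interval -0.77 to -0.077), with an unadjusted p of 0.0207 and an adjusted p of 0.203 in edgeR's quasi-likelihood test. No member had groups without overlap (11.3% of all genes had), and none was called at an adjusted p under 0.05 (0 of 7), where 2.58% of the 15483 genes tested were called, and DESeq2 also called 0. At an unadjusted p under 0.05 there was 1 of 7, against 17.4% of all genes.

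None of the other members had an interval without 0 at 8 months. Egr4 had a log2 fold change of 0.27 (interval -0.073 to 0.61), with 3xTg-8M libraries at 13.9, 16.9, 10.2 and 14.3 CPM and WT-8M libraries at 9.03, 12.6, 13.1 and 11.9 CPM. Nr4a2, the receptor known as Nurr1, had -0.17 (interval -0.41 to 0.071), and Egr3 had 0.080 (interval -0.052 to 0.21). For Egr1 (-0.051), Egr2 (-0.029) and Nr4a3 (0.0045), the sign changed when single libraries were left out. Of the 7, 3 were above 0 and 4 below, where 48.7% of all genes were below. Their median log2 fold change was -0.029, and that of all genes 0.0060.

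Few of the genes around the members were called at 8 months. Of 28 other activity-induced genes, 10 were higher and 18 lower in 3xTg-8M, and 1 of them was called. This was Bdnf, the neurotrophin that neurons make in response to activity, at 49.7 ± 4.16 CPM against 64.5 ± 5.97 CPM (SD over 4 libraries a group). Its log2 fold change was -0.37 with an SE of 0.083 and an adjusted p of 0.0404 in edgeR's quasi-likelihood test. Fos (-0.52, SE 0.34), Junb (-0.073), Arc (-0.12) and Npas4 (-0.017) were not called. Of 13 tested upstream activators, 8 were higher and 5 lower, with 0 called and 3 at an unadjusted p under 0.05. Among them Srf had 0.18 (SE 0.080, adjusted p 0.279) and Creb1 -0.087 (SE 0.067, adjusted p 0.525). Nab2 had 0.23 (SE 0.089, adjusted p 0.210) and Nab1 -0.11 (SE 0.063, adjusted p 0.370). Of 11 glucocorticoid and clock genes, 10 were higher and 1 lower, with a median log2 fold change of 0.24 and with 6 higher and 1 lower at an unadjusted p under 0.05. Of these, Dbp was called higher (0.57, SE 0.0996, adjusted p 0.00972) and Arntl called lower (-0.41, SE 0.071, adjusted p 0.00945) in 3xTg-8M. The dentate gyrus markers summed to 451 to 532 CPM in 3xTg-8M and 543 to 585 CPM in WT-8M, with C1ql2 called (-1.04, adjusted p 6.48e-06), and the neuron markers to 8536 to 9122 and 8876 to 9866 CPM, all listed genes above 0. Of 10 markers of neighbouring tissue (neocortex, striatum and thalamus), 4 were higher and 6 lower, with 1 in each direction at an unadjusted p under 0.05, and Rgs9 was called (-1.14, adjusted p 0.00196). Their part in the values of the members was not tested.

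Under vehicle at 10 months, 3xTg-D was set against WT-D to ask how the strains differ. All 7 members had a mean log2 fold change below 0, where 51% of the 15528 genes tested were below 0. The 7 signs, here and in later comparisons, are not separate results. Levels of the members varied together between animals of a group, with Pearson's r above 0 in all 21 pairs (below). Nr4a1, Egr1, Egr4 and Egr2 had log2 fold changes between -0.39 and -0.85, while Egr3, Nr4a2 and Nr4a3 were closer to WT-D. No member was called at an adjusted p under 0.05 (0 of 7, against 1.39% of all genes), and DESeq2's likelihood ratio test called 1, Nr4a1. At an unadjusted p under 0.05 there were 4 of 7, all lower, against 6.87% of all genes. Without WT-D replicate 1, 3xTg-D replicate 3 or 3xTg-D replicate 4 there were 2, Egr1 and Nr4a1, and there were 2 in a fit of all 15 libraries. At an unadjusted p under 0.01 there was 1, Nr4a1, against 4.95% of all genes. The median log2 fold change over the 7 was -0.39, and over all genes -0.0029.

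Nr4a1 was the member with the smallest p in this comparison. WT-D libraries were at 40.8, 32.8, 45.4 and 35.5 CPM. 3xTg-D libraries were at 34.9, 23.1, 24.6 and 22.6 CPM. The 3xTg-D replicates 2, 3 and 4 lay below every WT-D library, and replicate 1 lay within the WT-D range. The log2 fold change was -0.56, SE 0.14 (interval -0.86 to -0.26), with an unadjusted p of 0.00162 and an adjusted p of 0.0800 in edgeR's quasi-likelihood test. Over 15 alternatives it kept its sign, between -0.72 and -0.48, with adjusted p between 0.000129 and 0.219. Without 3xTg-D replicate 1 it was -0.72 with an adjusted p of 0.00863.

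Egr1, also called Zif268 and the member most used as a marker of active neurons, was at 149.6, 85.3, 105 and 81.4 CPM in WT-D. It was at 93.6, 73.7, 60.3 and 65.2 CPM in 3xTg-D. The groups overlapped, since 3xTg-D replicate 1 lay above WT-D replicates 2 and 4, and WT-D replicate 1 was the highest of the 8. The log2 fold change was -0.53, SE 0.18 (interval -0.93 to -0.14, unadjusted p 0.0123, adjusted p 0.221 in edgeR's quasi-likelihood test). Its value was -0.32 without WT-D replicate 1.

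Egr4 was at 14.0, 10.0, 9.73 and 9.86 CPM in WT-D and at 10.4, 8.71, 7.36 and 7.07 CPM in 3xTg-D. Again WT-D replicate 1 was the highest and 3xTg-D replicate 1 reached into the WT-D range. Its log2 fold change was -0.39, SE 0.15 (interval -0.73 to -0.054, unadjusted p 0.0267, adjusted p 0.301 in edgeR's quasi-likelihood test), and -0.24 without WT-D replicate 1.

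Egr2 had 41, 14, 26 and 19 counts in WT-D, or 2.39, 0.935, 1.73 and 1.16 CPM. In 3xTg-D it had 19, 11, 14 and 8 counts, or 1.37, 0.720, 0.838 and 0.565 CPM. The groups overlapped, with 3xTg-D replicate 1 above WT-D replicates 2 and 4. Its difference was the largest of the 7 and the least precise, at -0.85, SE 0.35 (interval -1.61 to -0.087, unadjusted p 0.0318, adjusted p 0.322 in edgeR's quasi-likelihood test). Without WT-D replicate 1 it was -0.56 (unadjusted p 0.134).

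Egr3, Nr4a2 and Nr4a3 did not follow with differences of this size. Their log2 fold changes were -0.12 (interval -0.32 to 0.086), -0.20 (-0.58 to 0.19) and -0.039 (-0.23 to 0.15). Nr4a2 was at 72.8, 55.5, 56.7 and 45.004 CPM in WT-D and 54.6, 54.1, 60.4 and 31.9 CPM in 3xTg-D, where replicate 4 alone was low, and its log2 fold change was -0.064 without WT-D replicate 1. Nr4a3, also called Nor1, was at 107, 82.9, 104 and 87.4 CPM and 103, 84.8, 89.8 and 95.5 CPM, and the sign of its difference changed without WT-D replicate 1, WT-D replicate 3 or 3xTg-D replicate 2.

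**Figure D2:**
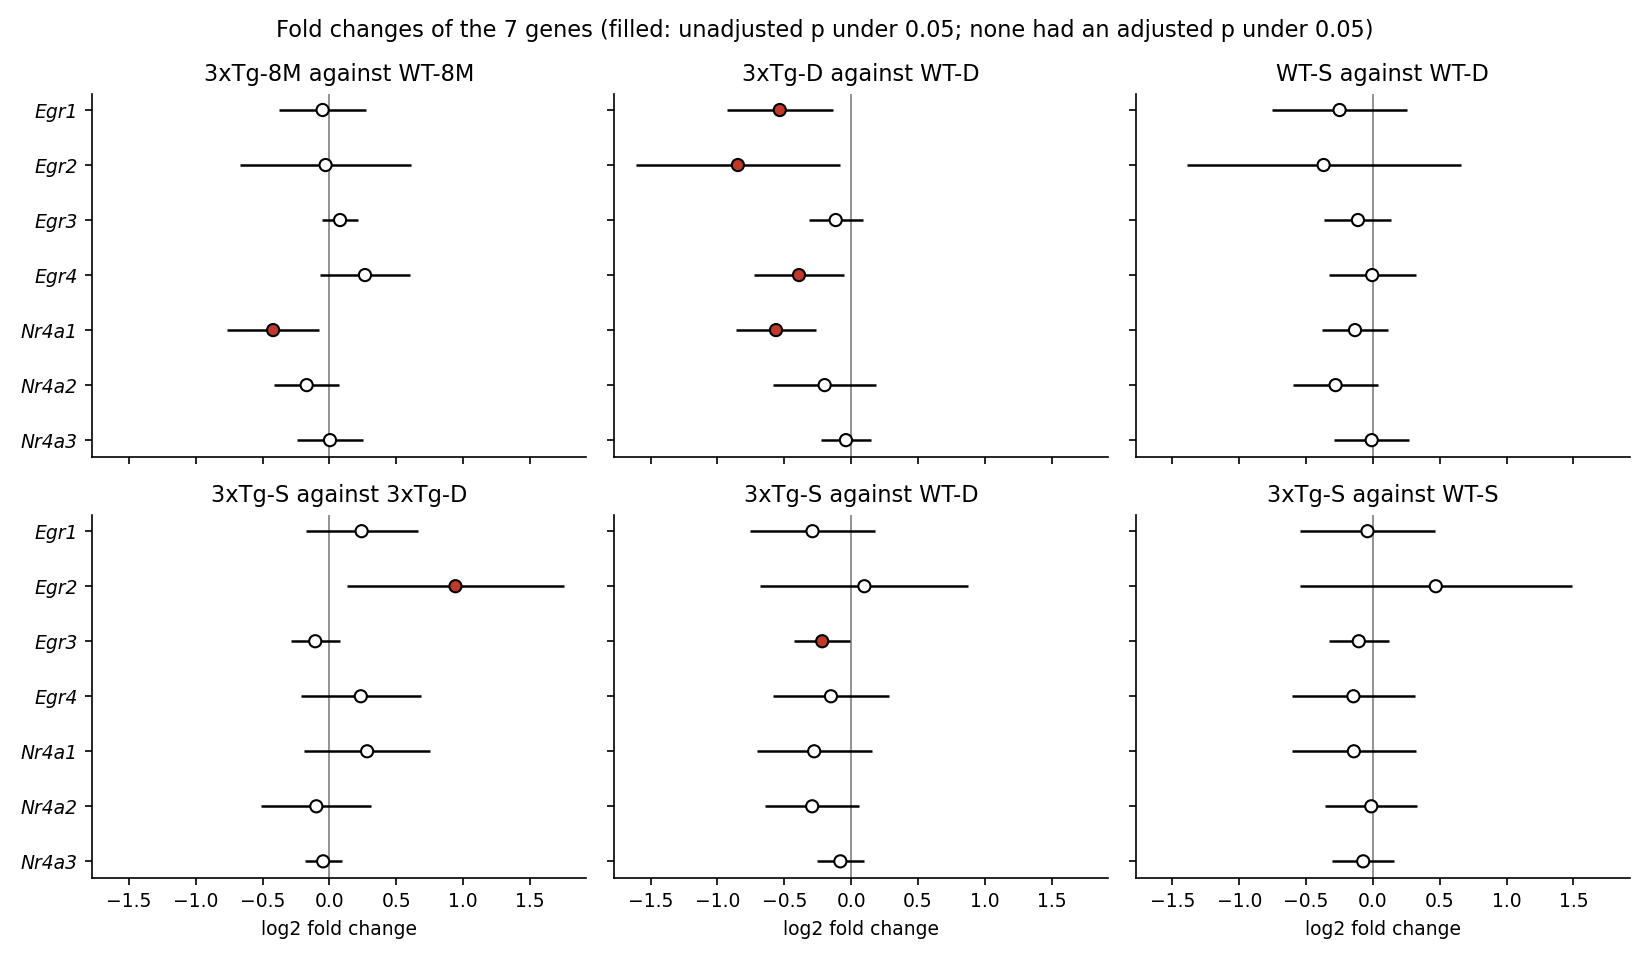
Log2 fold changes (x axis) of the 7 genes (y axis) with 95% intervals (lines) in the 6 comparisons between pairs of groups, from edgeR, with filled points for an unadjusted p under 0.05. The filled points number 4 in 3xTg-D against WT-D and 1 or 0 in the others, and no adjusted p was under 0.05.

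The wider set of activity-induced genes was measured in the same libraries. Of the 28 others, 8 were higher and 20 lower in 3xTg-D, with 0 called and 5 lower at an unadjusted p under 0.05, and with a median log2 fold change of -0.076. Arc, whose protein acts at synapses, had -0.30 (SE 0.14, adjusted p 0.379 in edgeR's quasi-likelihood test) and Npas4, a factor induced by calcium, -0.38 (SE 0.15, adjusted p 0.320). Fos had -0.16 (SE 0.32) and Junb -0.11 (SE 0.13), both partners in the AP-1 complex. Of 13 upstream activators, 6 were higher and 7 lower, with 0 called and 0 at an unadjusted p under 0.05 (Srf 0.082, SE 0.090, and Creb1 0.11, SE 0.084). Of 5 cofactors, 4 were higher and 1 lower, with 0 called (Nab1 0.020, SE 0.068, and Nab2 0.085, SE 0.073), and of 11 glucocorticoid and clock genes 3 were higher and 8 lower, with 0 called.

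Some markers of cell types differed with strain in these libraries. The 8 neuron markers summed to 8673 to 9358 CPM in 3xTg-D and 9389 to 9908 CPM in WT-D, with 1 higher and 7 lower and 0 called. Of the 6 dentate gyrus markers (481 to 552 against 532 to 634 CPM), 1 was higher and 5 lower, with C1ql2 called (-1.37, adjusted p 1.01e-04). Of the CA1 markers (263 to 335 against 323 to 336 CPM) 1 was higher and 3 lower, with 0 called. Of the CA3 markers (194 to 254 against 231 to 269 CPM), 1 was higher and 3 lower, with Iyd called (1.37, adjusted p 0.0320). Among 10 markers of neighbouring tissue (neocortex, striatum and thalamus), 5 were higher and 5 lower, with 0 called. At an unadjusted p under 0.05, Tcf7l2 (0.62) and Lef1 (0.36) were higher and Rgs9 (-0.50) was lower. All 6 microglia markers were higher (206 to 322 against 214 to 241 CPM), with C1qa called (0.49, adjusted p 0.0442). All 5 astrocyte markers were higher, with 0 called, and all 3 tested choroid plexus markers were higher at an unadjusted p under 0.05 (sums of 37.5 to 123 against 33.1 to 42.4 CPM). Only Kcnj13, a choroid plexus gene, was at 0 in any library (1 of 23), and the part of these markers in the values of the members was not tested.

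In 3xTg mice, the inhibitor was compared with vehicle (3xTg-S against 3xTg-D). Egr2 had the largest difference, towards higher levels in 3xTg-S, and Egr1, Egr4 and Nr4a1 were higher in mean with intervals that held 0. No member was called (0 of 7), and neither was any of the 15530 genes tested (0%), by edgeR's quasi-likelihood test, and DESeq2 called 0 members but gave no adjusted p for Egr2, Egr4 and Nr4a1. At an unadjusted p under 0.05 there was 1 of 7, against 11.2% of all genes. Egr2 was at 1.37, 0.720, 0.838 and 0.565 CPM in 3xTg-D and 2.19, 2.47, 0.882 and 1.08 CPM in 3xTg-S (36, 38, 12 and 16 counts). In 3xTg-S, replicates 1 and 2 lay above every 3xTg-D library and replicates 3 and 4 within their range. The log2 fold change of Egr2 was 0.94, SE 0.37 (interval 0.13 to 1.75, unadjusted p 0.0260, adjusted p 0.403 in edgeR's quasi-likelihood test), between 0.69 and 1.23 when single libraries were left out.

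Egr1 was at 98.3, 115, 54.5 and 76.5 CPM in 3xTg-S, and its log2 fold change against 3xTg-D was 0.24, SE 0.19 (interval -0.18 to 0.66). Nr4a1 was at 33.0, 47.2, 19.9 and 26.9 CPM (0.28, SE 0.22, interval -0.19 to 0.76). Egr4 was at 9.12, 14.7, 7.05 and 8.37 CPM (0.23, SE 0.21, interval -0.22 to 0.69). In all of these, replicate 2 was the highest and replicate 3 the lowest of the group. Without 3xTg-S replicate 2, the log2 fold changes were 0.069 for Egr1, 0.026 for Nr4a1 and -0.029 for Egr4. That library also had the summed choroid plexus level of 244 CPM given above and 208 CPM of blood markers, against 30.0 to 55.0 CPM in the other 3xTg-S libraries. The 3xTg-S libraries had length slopes of -0.097 to 0.0046 and the 3xTg-D libraries 0.019 to 0.043, without overlap. With the length and GC trend removed, Egr2 had 0.90 and Egr1 0.21. All 6 microglia markers were higher in 3xTg-S (245.0 to 324 against 206 to 322 CPM), as were all 5 blood markers (30.0 to 208 against 4.79 to 67.2 CPM), with 0 called in either list. The oligodendrocyte genes Mbp (0.31), Mog (0.34), Mag (0.33) and Cnp (0.25) were higher too, with 0 of these 4 called and 3 at an unadjusted p under 0.05. The part of these markers in the values of the members was not tested. Egr3 (-0.11, interval -0.29 to 0.076), Nr4a2 (-0.098, -0.51 to 0.31) and Nr4a3 (-0.047, -0.19 to 0.092) had values near or below 0.

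The other activity-induced genes were not called in 3xTg-S either, and their median log2 fold change was 0.054 where that of the members was 0.23. Of 28, 17 were higher and 11 lower than in 3xTg-D, with 0 called and 1 in each direction at an unadjusted p under 0.05. Fos was at 7.14 ± 4.62 CPM in 3xTg-S and 5.12 ± 1.83 CPM in 3xTg-D (SD, n = 4 each), a log2 fold change of 0.49 (SE 0.39). Arc had 0.27 (SE 0.19), Npas4 0.46 (SE 0.39) and Junb 0.17 (SE 0.19). Of 13 upstream activators, 3 were higher and 10 lower, with 3 lower at an unadjusted p under 0.05, among them Creb1 (-0.15, SE 0.062, adjusted p 0.423 in edgeR's quasi-likelihood test). Srf (-0.026), Nab1 (-0.031) and Nab2 (-0.037) were near 0.

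WT mice received the same inhibitor (WT-S against WT-D). All 7 members had a log2 fold change below 0, where 49.4% of the 15724 genes tested did, and none was called (0 of 7, 0% of all genes, 0 by DESeq2). At an unadjusted p under 0.05 there were 0 of 7, against 3.42% of all genes. The largest differences were in Egr2 (-0.37, SE 0.46, interval -1.39 to 0.66), Nr4a2 (-0.28, SE 0.14, -0.60 to 0.039) and Egr1 (-0.25, SE 0.23, -0.76 to 0.26). Nr4a2 was at 52.5, 48.9 and 40.9 CPM in WT-S, inside the WT-D range but for replicate 3, and its unadjusted p was 0.0791 (adjusted p 0.981 in edgeR's quasi-likelihood test). Nr4a1 in WT-S was at 36.5, 37.1 and 32.1 CPM and differed from WT-D by -0.13, SE 0.11. Egr3 had -0.11, Egr4 -0.0055 and Nr4a3 -0.0091. Without WT-D replicate 1, the largest differences shrank to -0.077 for Egr2, -0.14 for Nr4a2 and -0.031 for Egr1, and without WT-S replicate 1 that of Egr2 was -1.12 (unadjusted p 0.0309). Egr4 (0.14) and Nr4a3 (0.051) were above 0 without WT-D replicate 1. The WT-S libraries had length slopes of -0.033 to 0.0021 and the WT-D libraries 0.0070 to 0.029, without overlap, and with the length and GC trend removed Egr2 had -0.41, Nr4a2 -0.30 and Egr1 -0.30. In the same comparison Fos had -0.24 (SE 0.39), Junb 0.0023 (SE 0.073), Arc 0.15 (SE 0.14) and Npas4 -0.32 (SE 0.17), and of the 28 activity-induced genes 14 were higher and 14 lower, with 0 called.

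Whether the response to the inhibitor differs between the strains was tested over the 15 libraries of 10 months. The interaction term was above 0 for 6 members and below for 1, where 50.6% of the 16262 genes tested were above 0, and 0 of 7 were called (0% of all genes, 0 by DESeq2). Egr2 had 1.31, SE 0.63 (interval -0.024 to 2.65, unadjusted p 0.0538), Egr1 0.49, SE 0.33 (-0.21 to 1.19) and Nr4a1 0.42, SE 0.28 (-0.18 to 1.01). The smallest unadjusted p was that of Egr2, so 0 members were under 0.05, against 2.32% of all genes. When single libraries were left out, the interaction term of Egr2 lay between 0.996 and 2.07 (the highest without WT-S replicate 1, unadjusted p 0.00478), that of Egr1 between 0.27 and 0.71 and that of Nr4a1 between 0.16 and 0.58. The lowest value of Egr1 was without WT-D replicate 1, and that of Nr4a1 without 3xTg-S replicate 2. All 3 were at an unadjusted p under 0.05 with 3xTg-S replicate 3 left out, and 0 were called. The effect of the inhibitor over both strains was between -0.18 for Nr4a2 and 0.32 for Egr2, with 4 members above 0 and 3 below. By edgeR's quasi-likelihood test, 0 of 7 were called (0% of all genes), and 0 of 7 were at an unadjusted p under 0.05, against 13.6%. DESeq2 called 73 genes, 0 of them members, but gave no adjusted p for Egr2, Egr4 and Nr4a1. For Nr4a1 the effect over both strains was 0.084, SE 0.15 (interval -0.22 to 0.39) and for Egr1 0.012, SE 0.17 (-0.35 to 0.37).

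The strain term over both treatments used the same 15 libraries and so shares them with the comparisons above. All 7 members were below 0 in 3xTg mice, as were 50.2% of genes, and 0 of 7 were called, against 6.53% of all genes, with 0 called by DESeq2. Nr4a1 had -0.37, SE 0.15 (interval -0.67 to -0.065, unadjusted p 0.0200, adjusted p 0.152 in edgeR's quasi-likelihood test) and was the 1 member at an unadjusted p under 0.05, against 19.7% of all genes. Egr1 had -0.31, SE 0.17 (-0.67 to 0.052) and Egr4 -0.28, SE 0.14 (-0.57 to 0.012). Without 3xTg-S replicate 2, both Egr4 (-0.40, adjusted p 0.0321) and Nr4a1 (-0.49, adjusted p 0.0126) were called. Over all genes, that fit called 1102 and the fit of all 15 libraries 1062. Of the 28 other activity-induced genes, 7 were higher and 21 lower, and 2 were called, Bdnf (-0.35, SE 0.086, adjusted p 0.0172) and Per1 (-0.21, SE 0.049, adjusted p 0.0127), a clock gene that activity also induces. Fos (0.18, SE 0.31), Junb (-0.031), Arc (-0.24, SE 0.13) and Npas4 (-0.020) were not called. Of the marker genes reported here, C1ql2, Prox1, Wfs1, Cpne4 and Rgs9 were called lower and Iyd, C1qa, Csf1r and Tmem119 higher, and their part was not tested.

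The study set 3xTg-S against WT-D to ask which genes were back at the WT vehicle level. These values share their libraries with 3xTg-D against WT-D and 3xTg-S against 3xTg-D. Nr4a1 differed from WT-D by -0.28, SE 0.20 (interval -0.71 to 0.15), Egr1 by -0.29, SE 0.22 (-0.76 to 0.18), Egr4 by -0.15, SE 0.20 (-0.59 to 0.28) and Egr2 by 0.099, SE 0.36 (-0.68 to 0.88). The intervals of Nr4a1 and Egr1 thus held both 0 and the mean differences of 3xTg-D from WT-D. These values turned on single libraries. Without 3xTg-S replicate 2, Nr4a1 had -0.53 (unadjusted p 0.00594, adjusted p 0.135 in edgeR's quasi-likelihood test), Egr1 -0.46, Egr4 -0.41 (unadjusted p 0.0222), Nr4a2 -0.41 (unadjusted p 0.0302) and Egr2 -0.15. Without WT-D replicate 1, Nr4a1 had -0.25, Egr1 -0.076, Egr4 -0.0090, Nr4a2 -0.16 and Egr2 0.39. Egr3 had the smallest p (-0.22, SE 0.097, unadjusted p 0.0438, adjusted p 0.279 in edgeR's quasi-likelihood test). No member was called (0 of 7, against 2.29% of all genes, 0 by DESeq2), and 1 of 7 was at an unadjusted p under 0.05, against 16.9%. Nr4a2 had -0.29, SE 0.16 and Nr4a3 -0.081, SE 0.081. Of the 28 other activity-induced genes, 12 were higher and 16 lower than in WT-D, with 0 called. Among the marker genes reported here, C1ql2 and Wfs1 were called lower and Iyd, Mbp, Tmem119, C1qa and Hbb-bt higher, and their part was not tested. Mog (0.23), Mag (0.27) and Cnp (0.22), which like Mbp (0.43) mark oligodendrocytes, were higher at an unadjusted p under 0.05 without a call. Against WT-S, with both strains under the inhibitor, the 7 values of 3xTg-S lay between -0.15 (Egr4) and 0.47 (Egr2), 0 of 7 were called (1.32% of all genes, 0 by DESeq2) and 0 of 7 were at an unadjusted p under 0.05, against 10.6%.

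The ages were kept apart in the labels, and age, surgery, infusion and any difference in handling cannot be told apart, so the values of 8 and 10 months are only set side by side. Egr2 had a mean of 3.12 CPM in 3xTg-8M and 0.874 CPM in 3xTg-D, a ratio of 3.57, and the ranges did not overlap. Egr1 had a ratio of 1.78 between the same groups, again without overlap. Of 14622 genes averaging 1 CPM or more, 4.00% were higher at 8 months without overlap in these groups. In WT mice, Nr4a1 had a mean of 56.7 CPM in WT-8M and 38.6 CPM in WT-D without overlap (ratio 1.47), and 2.43% of genes were higher at 8 months without overlap there. Egr3 and Nr4a3 had ratios from 0.958 to 1.09 in both strains. The remaining ratios were between 1.07 and 2.06, and all these ranges overlapped.

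Beyond the groups, the members differed widely between animals of the same group. The SD of log2 CPM within groups, pooled over the 6 groups, was 0.61 for Egr2, 0.36 for Egr1, 0.32 for Nr4a1, 0.29 for Egr4, 0.29 for Nr4a2, 0.18 for Nr4a3 and 0.14 for Egr3. The median over the 14622 genes was 0.14. Rare genes vary more, so each member was also set beside the 500 genes nearest to it in level. Of these, the share with a smaller SD was 100% for Egr1, 99.2% for Nr4a1, 99.0% for Nr4a2, 95.4% for Nr4a3, 93.6% for Egr2, 91.2% for Egr4 and 84.4% for Egr3. Counting error alone gives an SD of 0.32 for Egr2 and 0.11 for Egr4, and of 0.062 or less for the others.

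**Figure D3:**
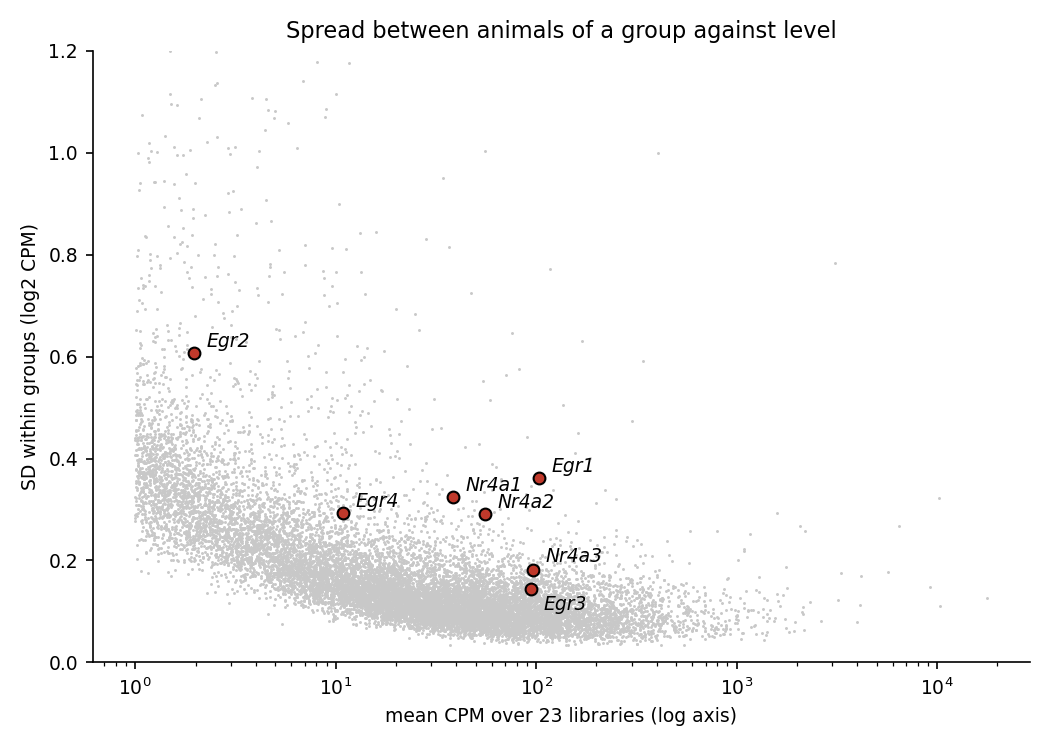
SD of log2 CPM within groups (y axis) against mean CPM over 23 libraries (x axis, log scale) for 14622 genes (grey) and the 7 members (red). Egr1, Nr4a1 and Nr4a2 lie above nearly all genes of their level, Egr3 lies within the cloud, and 40 genes with an SD above 1.2 are outside the axis.

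The same animals were high or low in most members. In WT-D, replicate 1 had the highest level of 6 of the 7 genes, and in WT-S replicate 1 had the highest of 6 as well. In 3xTg-D, replicate 1 was highest in 5, and replicate 4 lowest in 5. 3xTg-S replicate 2 was highest in 5, and replicate 3 was lowest in all 7. At 8 months, 3xTg-8M replicate 2 was highest in 6 and replicate 3 lowest in 5, whereas the highest members of WT-8M were divided over 3 libraries.

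**Figure D4:**
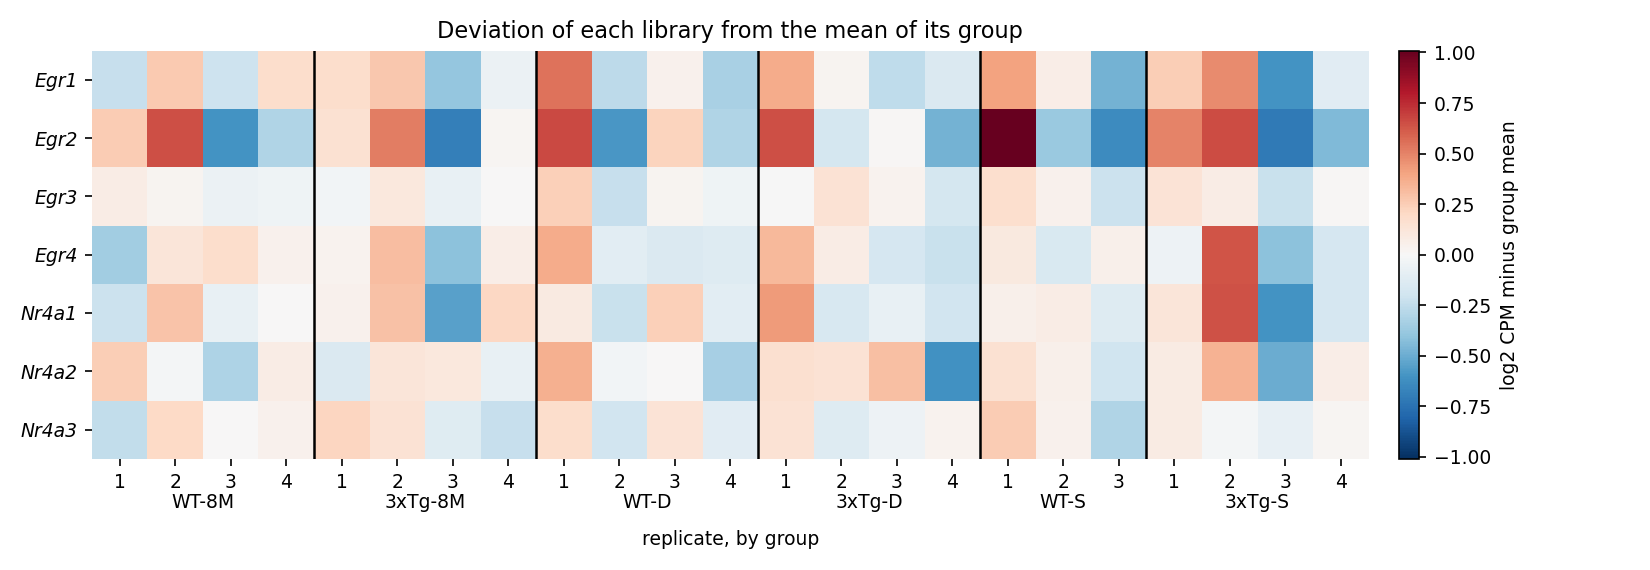
Log2 CPM of each gene (rows) in each library (columns, by group and replicate) minus the mean of its group, in colour (red above, blue below). The columns of WT-D replicate 1, 3xTg-D replicate 1 and 3xTg-S replicate 2 are red in most rows, and 3xTg-S replicate 3 is blue in all 7.

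Levels centred on group means were correlated for each of the 21 pairs of genes over 23 libraries, with p-values from 100000 two-sided permutations within groups and a Benjamini-Hochberg adjustment over the 21 pairs. All libraries of a pair share depth and scaling. Pearson's r was above 0 in all pairs, between 0.17 and 0.84 with a median of 0.60. Egr1 and Egr2 had r = 0.84 and Spearman's rho = 0.87 (permutation p 8.00e-05 and 5.00e-05, adjusted 0.000840 and 0.000630). For Egr1 and Nr4a1, r was 0.80 and rho 0.81 (permutation p 8.00e-05 and 6.00e-05, adjusted 0.000840 and 0.000630). Egr4 and Nr4a1 had r = 0.81 and rho = 0.72 (permutation p 0.000690 and 0.00119, adjusted 0.00207 and 0.00312). Without the 2 libraries farthest from the median of the first gene, r was 0.82, 0.80 and 0.69 in these pairs. At 8 months alone r was 0.70, 0.85 and 0.86, and at 10 months alone 0.89, 0.79 and 0.79.

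Of the 21 pairs, 15 had an adjusted permutation p of r under 0.05, and the lowest r lay within the Nr4a family. The share among other pairs of genes was not measured, so this count is not shown to be particular to the members. Nr4a2 and Nr4a3 had r = 0.17 and rho = 0.19 (permutation p 0.413 and 0.403, adjusted 0.413 and 0.403), -0.32 at 8 months and 0.36 at 10 months, and 0.20 without the 2 farthest libraries. Egr3 with Nr4a2 had r = 0.73 and rho = 0.74 (permutation p 0.00124 and 0.000400, adjusted 0.00325 and 0.00140), and 0.74 without the 2 libraries farthest in Egr3, 0.54 at 8 months and 0.76 at 10 months. Egr4 with Nr4a2 had r = 0.40 and Nr4a1 with Nr4a2 had r = 0.44, with permutation p of 0.119 and 0.0871 (adjusted 0.125 and 0.0962). These values rested on the 2 libraries farthest from the median of Egr4 or of Nr4a1, with 0.16 and 0.17 without them. At 8 and 10 months alone these pairs had opposite signs, at -0.50 and 0.67 for Nr4a2 with Egr4 and at -0.22 and 0.64 for Nr4a2 with Nr4a1, as did Nr4a2 with Egr1 (-0.042 and 0.71). The median r of the 21 pairs was 0.50 at 8 months and 0.71 at 10 months.

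**Figure D5:**
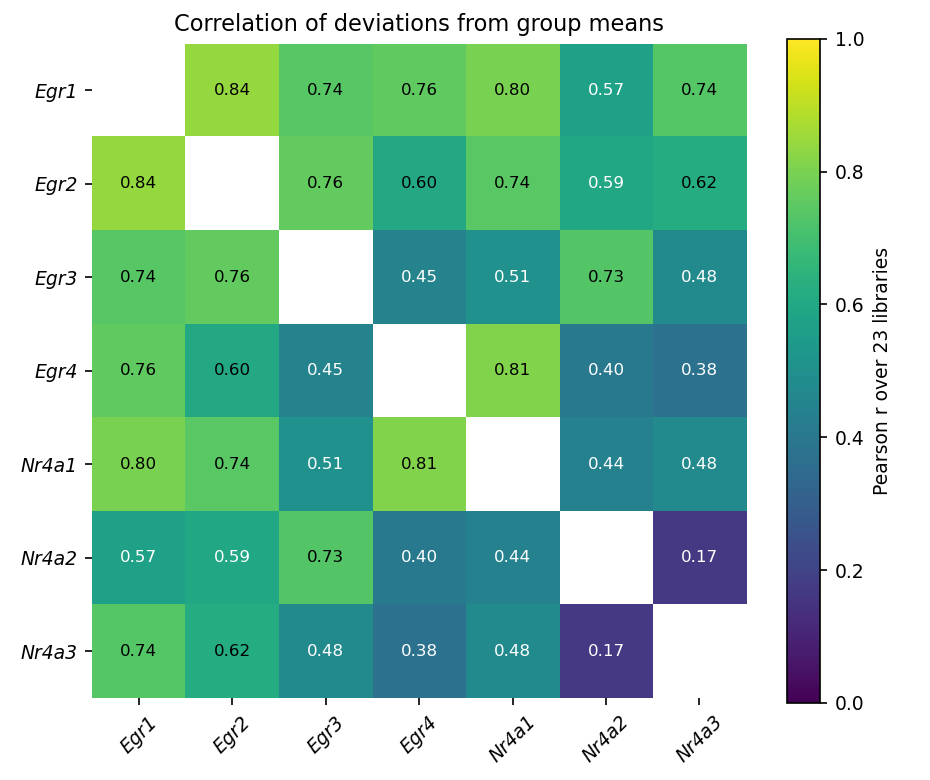
Pearson's r between the 7 genes (rows and columns) of log2 CPM centred on group means over 23 libraries. The values run from 0.17 for Nr4a2 with Nr4a3 to 0.84 for Egr1 with Egr2.

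Genes that followed the members most closely were sought among 14622 genes by their r with the mean of the members' standardised deviations, as a description. Fos, the prototype immediate-early gene, came first (r = 0.88), followed by Med7 (0.80), Mcl1 (0.79), Junb (0.78), Arc (0.78), Yipf5 (0.78), Gm17354 (0.77), Nudt4 (0.76), Zfp770 (0.75) and Bmt2 (0.74). Mcl1 encodes a survival protein of the BCL2 family and Med7 a subunit of Mediator. Of 27 other activity-induced genes at this level, 16 had r above 0.5, with a median of 0.53, as did 551 of all 14622 genes, whose median was -0.0012. Homer1 (0.71), Sik1 (0.69) and Bdnf (0.68) were among the 16, and Jun (0.10), Nptx2 (0.11), Dusp4 (0.11) and Per1 (0.11) were not. Homer1, Sik1, Jun, Nptx2 and Dusp4 were named after their values were seen. The upstream activators had a median of -0.08, with Creb1 at 0.51 and Srf at -0.32, and Nab1 was at 0.51 and Nab2 at 0.26. Of the marker lists, choroid plexus (0.39) and endothelial genes (0.38) had the highest medians and microglia genes (-0.24) the lowest.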

How the data were processed

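The deposited table holds raw read counts per gene, which the authors made from hippocampal RNA of 23 mice. The submitters' processing notes name Trimmomatic 0.35, STAR 2.5.1b and the GRCm38 build, and a strand setting of the counting is not given in the sources used here. The 4 lines that name no gene held 24.7% to 30.9% of reads and were left out. Groups came from the sample labels. Each comparison used edgeR 4.0.16 (R 4.3.3) with filterByExpr, TMM scaling and the quasi-likelihood test on its own libraries, or on the 15 libraries of 10 months for strain, inhibitor and interaction terms, with Benjamini-Hochberg adjustment over all genes tested and calls at an adjusted p under 0.05. CPM were TMM-scaled, and log2 CPM used a prior count of 2. Spread and likeness used the 14622 genes averaging 1 CPM or more. Scripts were tested on simulated data. Alternatives were DESeq2 1.42.0 (likelihood ratio test and size factors), no filter, removal of length and GC trends, a block, all 15 libraries together and single libraries left out.

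The members and gene lists were chosen with earlier results of these data known. Named beside the members were Nab1, Nab2, Srf, Creb1, Fos, Junb, Arc, Npas4, list genes called over all genes, and the 10 genes most like the members' profile. Intervals are at 95%. A strain name and a marker result are not reported here. Promoter windows are RefSeq's (GRCm38.p6) and cover 250 bases before the start.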

Additional observations from a re-analysis of the deposited data

Results flagged for a closer look

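Of 35 groups of 4 values (7 genes in the groups with 4 libraries), 2 held a library far from the other 3 by Dixon's criterion, and chance gives about 1 group in 20. Egr4 in WT-D replicate 1 was at 14.0 CPM, with a gap to the next library of 0.933 of the group's range. Nr4a1 in 3xTg-D replicate 1 was at 34.9 CPM, with a gap of 0.839 of the range. Without WT-D replicate 1, the log2 fold change of Egr4 in 3xTg-D against WT-D was -0.24. Without 3xTg-D replicate 1, that of Nr4a1 was -0.72. Both libraries were the highest of their group in most of the 7 genes.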

How the results depend on the processing

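Members called in 3xTg-D against WT-D numbered 0 by edgeR's quasi-likelihood test and 2 without a filter on low counts (Egr1, adjusted p 0.000730, and Nr4a1, adjusted p 0.000129), 1 by DESeq2 (Nr4a1, adjusted p 0.00680), 1 at an unadjusted p under 0.01 (Nr4a1), and 0 to 1 when single libraries were left out, with 1 without 3xTg-D replicate 1. Members lower at an unadjusted p under 0.05, a count added after seeing the data, were 4, and 2 with all 15 libraries fitted together or, at the lowest of 2 to 4, without single libraries. Without the filter there was 1 call in 3xTg-8M against WT-8M (Nr4a1, adjusted p 0.0147), 1 in 3xTg-S against WT-D (Nr4a2, adjusted p 0.0318) and 2 for strain over both treatments (Egr1, adjusted p 0.0325, and Nr4a1, adjusted p 0.00260), where leaving out libraries gave 0 to 2. Over all genes, the calls in these comparisons went from 399 to 854, from 356 to 1135 and from 1062 to 1554 without the filter. For strain, leaving out libraries gave 843 to 1102 over all genes. The cause of these differences was not tested. The median percentile of the members' spread was 85.9 among all genes and 96.4 among genes of at least 5 CPM. The second median leaves out Egr2, whose mean was 1.97 CPM. DESeq2 gave no adjusted p for Egr2, Egr4 and Nr4a1 in 3xTg-S against 3xTg-D and for the inhibitor over both strains. Values that changed sign lay near 0: Nr4a3 at 8 months had -0.0029 without the filter and -2.48e-05 by DESeq2, and Egr1 for the inhibitor over both strains -0.024 with the length and GC trend removed. Counting error limits Egr2, with 8 counts in the lowest library.

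The labels do not say that animal numbers pair mice. A replicate block of 4 consecutive animal numbers gave 2 calls in 3xTg-D against WT-D (Egr1 -0.51, adjusted p 0.0405, and Nr4a1 -0.57, adjusted p 0.0379), and turned the sign of Egr4 (0.14) and Nr4a3 (0.040) in WT-S against WT-D and of Egr3 (-0.032) in the interaction. Over all genes, 165 were called with the block in 3xTg-D against WT-D and 216 without it. Libraries of the same block correlated in their deviations over all genes at -0.28 to 0.25 (median 0.01, 21 pairs) and others at a median of 0.01 (63 pairs). WT-D with WT-S was the only pair of groups with every correlation over 0.1 (0.11 to 0.25), and the block changed no call there.

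Ranges of log2 fold changes over single libraries left out are given where a sign changed. For 3xTg-8M against WT-8M these were Egr1 -0.14 to 0.060, Egr2 -0.20 to 0.19 and Nr4a3 -0.079 to 0.079. For 3xTg-D against WT-D this was Nr4a3 -0.093 to 0.020. For 3xTg-S against 3xTg-D these were Egr4 -0.029 to 0.36, Nr4a2 -0.26 to 0.045 and Nr4a3 -0.089 to 0.0069. For WT-S against WT-D these were Egr4 -0.057 to 0.14 and Nr4a3 -0.14 to 0.13. For 3xTg-S against WT-D this was Egr2 -0.15 to 0.39. For 3xTg-S against WT-S these were Egr1 -0.24 to 0.18, Nr4a1 -0.40 to 0.023, Nr4a2 -0.14 to 0.13 and Nr4a3 -0.21 to 0.062. For the interaction these were Egr3 -0.095 to 0.097, Egr4 -0.021 to 0.37 and Nr4a3 -0.18 to 0.098. For the inhibitor over both strains these were Egr1 -0.092 to 0.12, Egr4 -0.017 to 0.19, Nr4a1 -0.057 to 0.15 and Nr4a3 -0.086 to 0.023. For strain over both treatments this was Nr4a3 -0.10 to 0.0071.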

Other observations

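The mean of the 7 standardised deviations from the group was highest in the mouse with the lowest animal number in 3 of the 4 infused groups, a pattern chosen after its values were seen. It was 1.34 in WT-D replicate 1, 0.98 in 3xTg-D replicate 1 and 1.06 in WT-S replicate 1. In 3xTg-S it was 0.57 in replicate 1 and 1.36 in replicate 2. The mouse with the highest number had the lowest value in 3xTg-D (-0.95) and WT-S (-1.07), but not in WT-D (-0.71, against -0.92 in replicate 2) or 3xTg-S (-0.29, against -1.64 in replicate 3). What the order of the numbers stands for is not given in the sources used here, and no test was made.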
